A study of Mus musculus with 4 samples.

Results

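The gamma-secretase subunit genes Ncstn, Psen2, Aph1a, Aph1b and Psenen and the Notch sheddase genes Adam10 and Adam17 were followed in mouse LSK cells, lineage-negative, cKit-positive and Sca1-positive cells of the bone marrow, among them the blood stem cells. The genes were fixed by name, and every probe set of the array annotated with a member's symbol was taken, which gave 18 of the 45037 probe sets tested. The main value of a gene came from its brightest probe set that named no other gene, so that the 7 members were 7 of the 18193 genes tested. Sorted cells of 4 samples, all from mice 6 weeks old, were each hybridized to an Affymetrix array. The Ncstn KO group had the genotype Ncstn flox/flox Mx1-cre+ and held a female sample (replicate 1) and a male sample (replicate 2). The WT group, littermates with the genotype Ncstn flox/flox and no cre, held a male sample (replicate 1) and a female sample (replicate 2). Both groups carried floxed Ncstn alleles and received polyIC, an inducer of interferon, at 20 µg per g of body weight in 3 injections every other day from 14 days of age, and marrow was taken 4 weeks after injection. Mx1-cre is a recombinase transgene driven by an interferon-inducible promoter and not restricted to one cell type, and because WT mice lacked it, the loss of Ncstn and the presence of the transgene cannot be told apart.

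Gamma-secretase is an intramembrane protease complex. Its catalytic subunit is a presenilin, Aph1 serves as the assembly scaffold, Pen-2 (the product of Psenen) is needed for presenilin to be cut into its active form, and nicastrin (the product of Ncstn) is the large glycosylated subunit without which the complex does not mature. A Notch receptor that has bound its ligand is first cut outside the membrane by a metalloprotease of the ADAM family, chiefly ADAM10, with ADAM17 acting mainly without ligand, and gamma-secretase then releases the intracellular domain that enters the nucleus. The arrays measured RNA, which does not show how much assembled protease the cells held.

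The arrays had median intensities of 71.6 to 79.2 over the probe sets tested, and their number limits the precision of every value. Intensities are the deposited values on a linear scale, and a change is the mean log2 intensity of Ncstn KO less that of WT, given with its standard error (SE) from limma (n = 2 per group). The labelled cell type was checked with 10 measured LSK marker genes (Ly6a, which encodes Sca1, was not analysed here). Their summed intensity was 42603 and 45384 on the Ncstn KO arrays and 45524 and 42227 on the WT arrays, with a median change of -0.03. Of these markers, 1 had separate arrays higher in Ncstn KO (Slamf1, background 21.3% of genes) and 3 lower (background 12.8%). The stem cell factor receptor gene Kit read 3318 and 3389 in Ncstn KO and 3939 and 3036 in WT, and the groups overlapped. Xist and the Y-linked genes Eif2s3y, Kdm5d and Uty followed the labelled sex on every array, with the Y-linked genes at 4.54 to 11.3 on the female arrays. The hybridization controls, foreign transcripts spiked in before hybridization, were brighter in Ncstn KO by 0.2 (log2). Scaling the arrays to them moved the median change over all genes to -0.17, beside 0.025 as deposited.

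The sequences just upstream of the deleted gene and of the subunit genes with probe sets higher on both Ncstn KO arrays are shown to give the genes' context. Each window holds the 250 bases before a RefSeq start (GRCm38.p6), 5′ to 3′ on the gene's strand. Capitals mark CCGGAAG or its reverse complement, the core recognised by ETS-family factors, which regulate many genes of blood cells.
Ncstn (chr1:172082750-172082999, minus strand): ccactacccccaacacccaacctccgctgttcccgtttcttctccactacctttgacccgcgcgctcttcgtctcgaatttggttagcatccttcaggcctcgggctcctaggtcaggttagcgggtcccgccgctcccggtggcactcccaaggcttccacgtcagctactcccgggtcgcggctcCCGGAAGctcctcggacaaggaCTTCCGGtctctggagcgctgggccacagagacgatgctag
Psen2 (chr1:180256301-180256550, minus strand, the first of 2 windows listed): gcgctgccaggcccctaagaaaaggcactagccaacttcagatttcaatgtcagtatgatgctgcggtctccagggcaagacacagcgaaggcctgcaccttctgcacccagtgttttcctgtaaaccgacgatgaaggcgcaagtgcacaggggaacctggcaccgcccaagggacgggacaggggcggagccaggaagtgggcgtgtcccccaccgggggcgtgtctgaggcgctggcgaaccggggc
Aph1a (chr3:95893671-95893920, plus strand): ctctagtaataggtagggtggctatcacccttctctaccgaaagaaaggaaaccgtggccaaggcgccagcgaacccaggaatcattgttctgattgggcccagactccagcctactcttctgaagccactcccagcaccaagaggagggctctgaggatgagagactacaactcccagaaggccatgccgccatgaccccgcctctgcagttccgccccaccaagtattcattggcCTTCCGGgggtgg
Aph1b (chr9:66795424-66795673, minus strand): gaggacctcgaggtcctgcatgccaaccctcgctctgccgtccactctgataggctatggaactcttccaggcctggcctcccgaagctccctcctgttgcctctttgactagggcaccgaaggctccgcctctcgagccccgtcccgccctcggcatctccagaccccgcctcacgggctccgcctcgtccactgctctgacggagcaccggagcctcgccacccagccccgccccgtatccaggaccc
The Ncstn window held 2 matches, the Aph1a window 1 and the Psen2 and Aph1b windows 0. Over both strands 6.91% of the 32851 windows in the table held this motif, as did 4 of the 9 windows of the members. The windows differ in composition, since the motif contains CG and the members' windows held a median of 18 CG, against 6 over all windows. The part of this in the motif count was not tested. TGGGAA, the core bound by the Notch effector RBPJ, was found in 21.6% of all windows and in 2 of the 9, neither of them printed here. A match is a description of the letters and was not tested as a binding site.

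Ncstn, the targeted gene, was lower on both Ncstn KO arrays. Its main probe set (1418570_at) read 191 and 240.0 in Ncstn KO, against 530.2 and 505 in WT. The groups did not overlap, and the means were 216 ± 34.6 and 518 ± 17.7 (SD, n = 2 each). The change was -1.27 (SE 0.22), so that Ncstn KO cells kept 41.4% of the WT signal. Adjusted over the 18193 genes the limma p was 0.257 (unadjusted 0.00104), short of the threshold of 0.05, and an exact two-sided permutation test of 2 arrays against 2 cannot go below 0.333. For scale, 45 of 18193 genes (0.247%) were lower by at least as much with separate arrays. The change was -1.4 between the female arrays and -1.14 between the male arrays. A dimmer second probe set (1444532_at) read 58.3 and 136 in Ncstn KO, against 113 and 111 in WT. Here the female Ncstn KO array lay below both WT arrays and the male Ncstn KO array above both, for a change of -0.32 (SE 0.45, adjusted p = 1.0). The mean of both probe sets changed by -0.8. Which part of the transcript either probe set covers relative to the floxed segment was not analysed here, so the signal that remained gives no measure of undeleted alleles, and fewer cells with the transcript cannot be told apart from less transcript per cell.

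**Figure D1:**
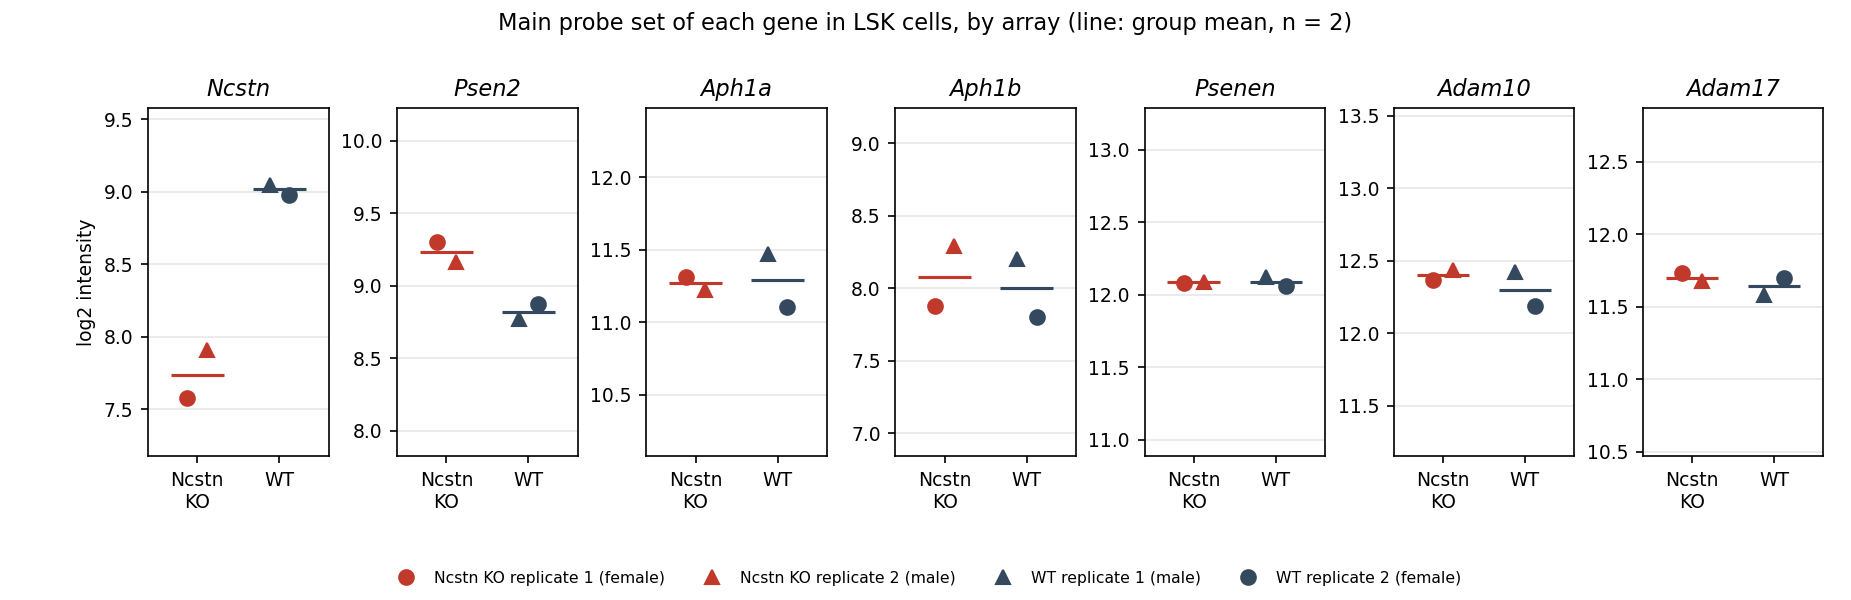
Log2 intensity of the main probe set of each gene on the Ncstn KO arrays (left) and the WT arrays (right), with circles for females, triangles for males and a line at each group mean (n = 2). Every panel spans the same number of log2 units around its own centre. The groups are separate for Ncstn (change -1.27) and Psen2 (0.41) and overlap for the other 5 genes.

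Among the 7 main probe sets, the limma fit called 0 at an adjusted p under 0.05 (background over all genes 0.00%), and 1, Ncstn, had an unadjusted p under 0.05, a level reached by 1.84% of genes in the lower direction and 6.80% in either. The Ncstn KO arrays lay on 1 side of the WT arrays for 2 of 7 genes, Ncstn and Psen2, where the background was 34.0%. The members' median change was 0.07, beside 0.025 over all genes. The separation count is not above its background. For Aph1b the probe set shared with Aph1c is brighter than the main one (mean log2 8.22 against 8.04) and its groups are separate, so taking it for Aph1b would make the separation count 3 of 7.

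Psen2, which encodes presenilin 2, a catalytic subunit, was the member that lay highest relative to WT in the gene fit. Its main probe set (1425869_a_at) read 631 and 573 in Ncstn KO, against 436 and 468 in WT. Both Ncstn KO arrays were above both WT arrays, at means of 602 ± 41.3 and 452 ± 22.7 (SD, n = 2 each). The 1.33-fold difference (log2 0.41, SE 0.18) did not pass (adjusted p = 0.776), with 0.43 between the females and 0.39 between the males. A difference at least this large with separate arrays was found in 6.68% of genes and 5.64% of probe sets. The second Psen2 probe set (1431542_at) was dim, reading 34.9 and 23.2 in Ncstn KO and 29.6 on each WT array, and its groups overlapped. With the mean of both Psen2 probe sets the change was 0.18 (SE 0.21), and with the hybridization controls as the scale the main change was 0.22.

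Aph1a, the scaffold subunit, gave different answers from its 3 probe sets. The brightest (1424980_s_at) read 2543 and 2389.9 in Ncstn KO, against 2832 and 2200.2 in WT. The Ncstn KO arrays fell between the WT arrays, with means of 2467 ± 108 and 2516 ± 447 (SD, n = 2 each) and a change of -0.018 (SE 0.15). The next brightest (1451554_a_at) read 1805 and 1735 in Ncstn KO, against 1154 and 1166 in WT. This 1.53-fold difference (log2 0.61, SE 0.13) had the smallest unadjusted p among the members after the main Ncstn probe set, 0.00357 in the fit over all probe sets, and it did not pass (limma adjusted p = 0.751). The dimmest (1424979_at) read 433 and 404 in Ncstn KO, against 286 and 300.4 in WT, a 1.43-fold difference (log2 0.51, SE 0.21, adjusted p = 0.961). Both of these probe sets were higher on both Ncstn KO arrays, which fixes the sign within each sex. The changes were 0.63 and 0.53 between the females and 0.59 and 0.5 between the males. The mean of all 3 probe sets changed by 0.37, so the sign for Aph1a turns with the choice of probe set. Which Aph1a transcripts each probe set detects was not analysed here.

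Aph1b, the alternative scaffold, lies beside Aph1c, a close copy found in rodents, and a probe set shared by the pair cannot assign its signal to either. That shared probe set (1429466_s_at), the brightest that names Aph1b, read 369.9 and 342 in Ncstn KO, against 282 and 218 in WT. The groups were separate and the difference 1.43-fold (log2 0.52, SE 0.24), without passing (adjusted p = 0.976). The main Aph1b probe set (1435793_at) read 236 and 313 in Ncstn KO and 295 and 223 in WT. The groups overlapped, with the male arrays higher than the female arrays in each genotype and a change of 0.082 (SE 0.26). The dimmest probe set (1456500_at) read 159 and 189.8 in Ncstn KO and 208 and 60.8 in WT. Its change of 0.63 (SE 0.59) rested on the female WT array, and without that array (WT replicate 2) it was -0.26.

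Psenen, which encodes Pen-2, was the member with the smallest spread between arrays. Its only probe set (1415679_at) read 4343 and 4348 in Ncstn KO, against 4457 and 4276 in WT. The Ncstn KO arrays lay between the WT arrays, at means of 4345 ± 3.56 and 4366 ± 128 (SD, n = 2 each), with a change of -0.0068 (SE 0.081).

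Of the subunits other than nicastrin, 4 probe sets were thus higher on both Ncstn KO arrays, for Psen2 (1), Aph1a (2) and Aph1b with Aph1c (1), and 0 were lower on both. Over all 18 probe sets of the members the arrays separated for 5, against a background of 32.5% of probe sets (18.5% higher, 14.0% lower). An unadjusted p under 0.05 was found for 2 of the 18 (background 5.14%), the higher one for Aph1a (background 3.27%) and the lower one for Ncstn (background 1.87%). The 4 higher ones stayed separate after scaling to the hybridization controls, at changes of 0.22 for Psen2, 0.41 and 0.32 for Aph1a and 0.32 for the shared probe set. Under that scaling the brightest Aph1a probe set and those of Psenen and Adam17 became lower on both Ncstn KO arrays, at -0.21, -0.2 and -0.13, close to the shift of -0.17 over all genes.

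**Figure D2:**
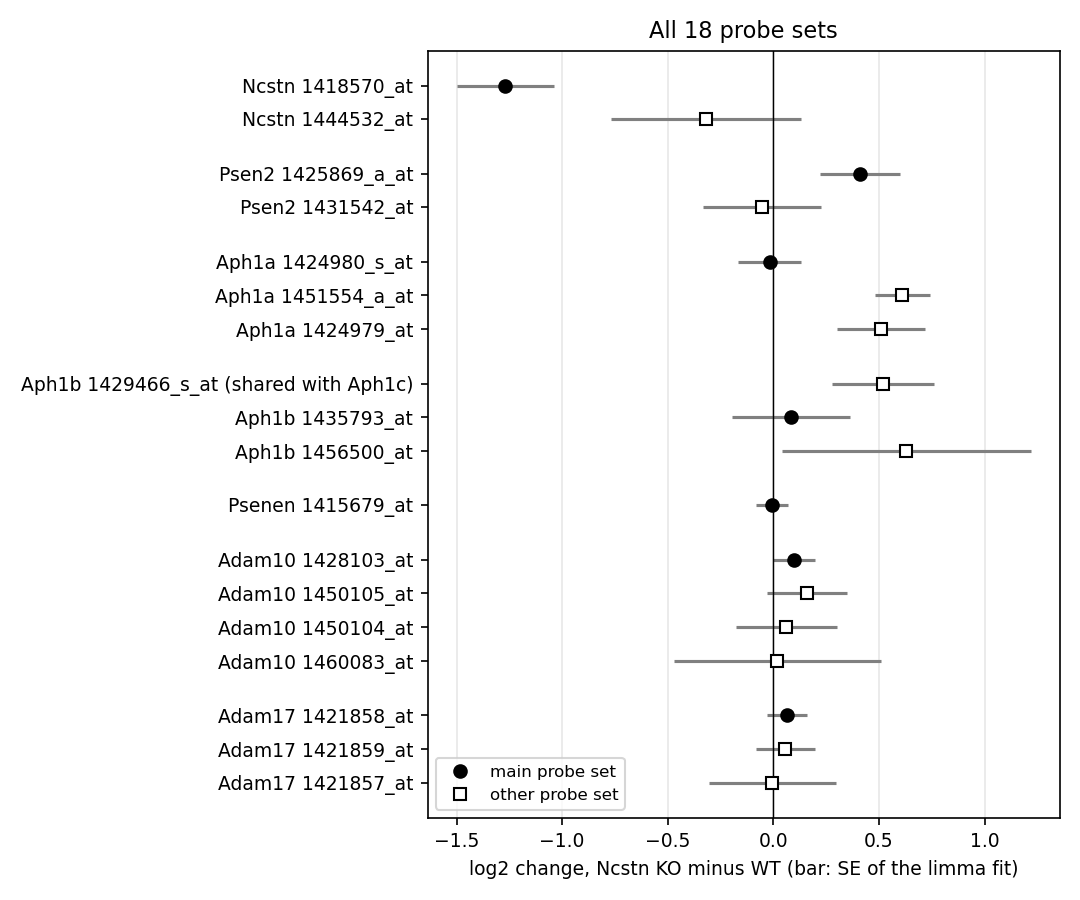
Log2 change, Ncstn KO minus WT, for each of the 18 probe sets, with bars of 1 SE of the limma fit over all probe sets (n = 2 per group). Filled circles are the main probe set of a gene and open squares the others. The main Ncstn probe set stands at -1.27, and the 3 Aph1a probe sets spread from -0.018 to 0.61.

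For the sheddase genes the groups overlapped on every probe set. Adam10, whose product makes the ligand-dependent first cut in Notch, read 5271 and 5554 in Ncstn KO, against 5479 and 4669 in WT, on its main probe set (1428103_at). The groups overlapped, at means of 5413 ± 201 and 5074 ± 573 (SD, n = 2 each), and the change was 0.097 (SE 0.1, adjusted p = 0.969). Its 3 other probe sets overlapped too, with changes of 0.16, 0.061 and 0.019, and the dimmest of them (1460083_at, 26.8 to 57.9 over the arrays) gave -0.98 between the females and 1.01 between the males. Adam17, also known as the tumour necrosis factor converting enzyme, read 3393 and 3272 in Ncstn KO, against 3056 and 3319 in WT, on its main probe set (1421858_at). Its groups overlapped, at means of 3332 ± 85.6 and 3187 ± 186 (SD, n = 2 each) and a change of 0.065 (SE 0.097, adjusted p = 0.981). The other Adam17 probe sets changed by 0.057 and -0.0045. With the hybridization controls as the scale, the main change of Adam10 was -0.098.

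Within-sex values describe each pair of 1 Ncstn KO and 1 WT array. Where the groups were separate, the sign had to be the same in both pairs. Of the 18 probe sets, 8 had the same sign in the female and the male pair and 10 had opposite signs, while 46.5% of all probe sets had opposite signs. With 1 array per sex and genotype, a difference between the sexes in the effect of genotype has no test. For the main probe sets of Aph1a, Aph1b, Psenen, Adam10 and Adam17 the changes within a pair lay between -0.24 and 0.21.

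**Figure D3:**
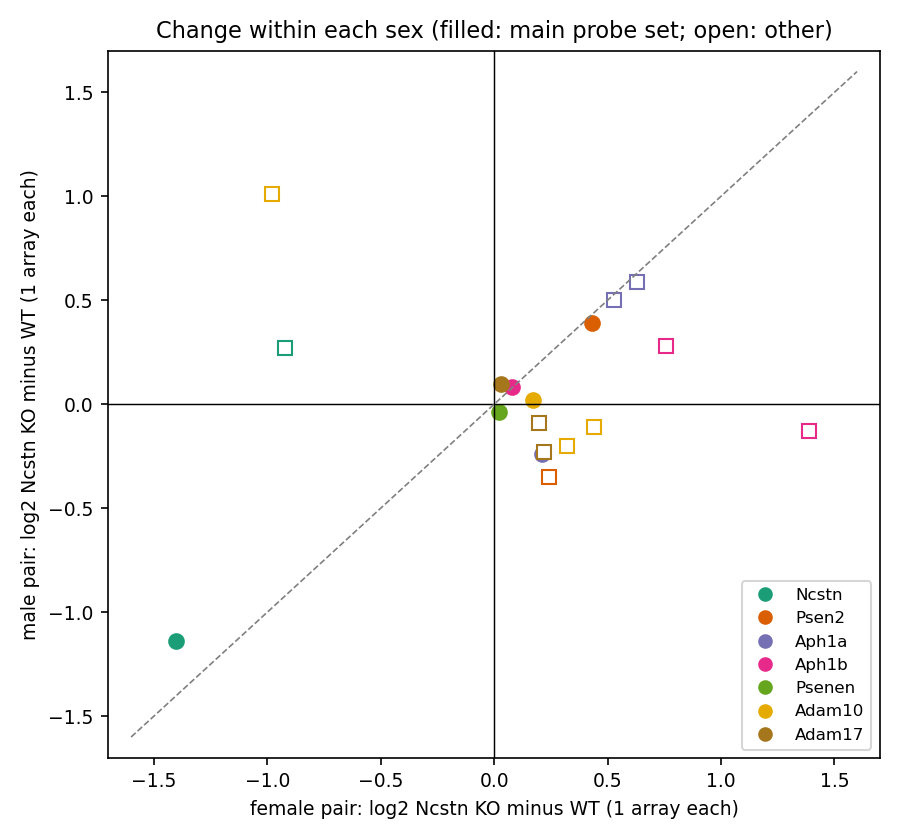
Log2 change, Ncstn KO minus WT, in the female pair (horizontal) and the male pair (vertical), 1 array per sex and genotype, for the 18 probe sets coloured by gene. Filled points are main probe sets, and the dashed line marks equal change. The main Ncstn probe set lies near the line at -1.4 and -1.14, whereas the second one lies at -0.92 and 0.27.

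In the gene fit, the 5 genes whose profile over the 4 arrays lay nearest to that of the main Ncstn probe set were Nr4a2, Emcn, Vps25, Rtp4 and Ptgs2, by the root-mean-square distance between profiles centred on their own means, among genes brighter than the median. The distances were 0.093, 0.104, 0.164, 0.174 and 0.181 (log2), and the changes were -1.24, -1.4, -0.95, -1.33 and -0.92, and since likeness to Ncstn chose these genes they carry no test. Nr4a2 encodes an orphan nuclear receptor, Emcn an endothelial sialomucin, Vps25 an endosomal sorting subunit, Rtp4 an interferon-induced protein and Ptgs2 an inducible cyclooxygenase. With 4 arrays, such distances are a description only.

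The genes beside Ncstn on the chromosome were looked up after the data had been seen, as the nearest protein-coding neighbours with a probe set in the RefSeq gene order. Copa, a coat protein gene of Golgi vesicles, overlaps the start of Ncstn on the other strand. It read 3932 and 3965 in Ncstn KO, both above the 3835 and 3603 of WT, as both were for 21.3% of genes. The change was 0.087 (SE 0.088, limma adjusted p = 0.964). It was -0.11 with the hybridization controls as the scale and -0.13 with the mean of both Copa probe sets. Pex19, a peroxisome assembly gene on the same side, read 386 and 418 in Ncstn KO and 406 and 405 in WT, and its groups overlapped. On the other side, the groups also overlapped for Vangl2, a planar cell polarity gene (1949.55 and 1378 in Ncstn KO, 1415 and 1493 in WT), and for Nhlh1, a neuronal transcription factor gene that read 6.53 to 9.27. The changes of these 4 neighbours ran from -0.014 to 0.17, beside -1.27 for Ncstn.

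**Figure D4:**
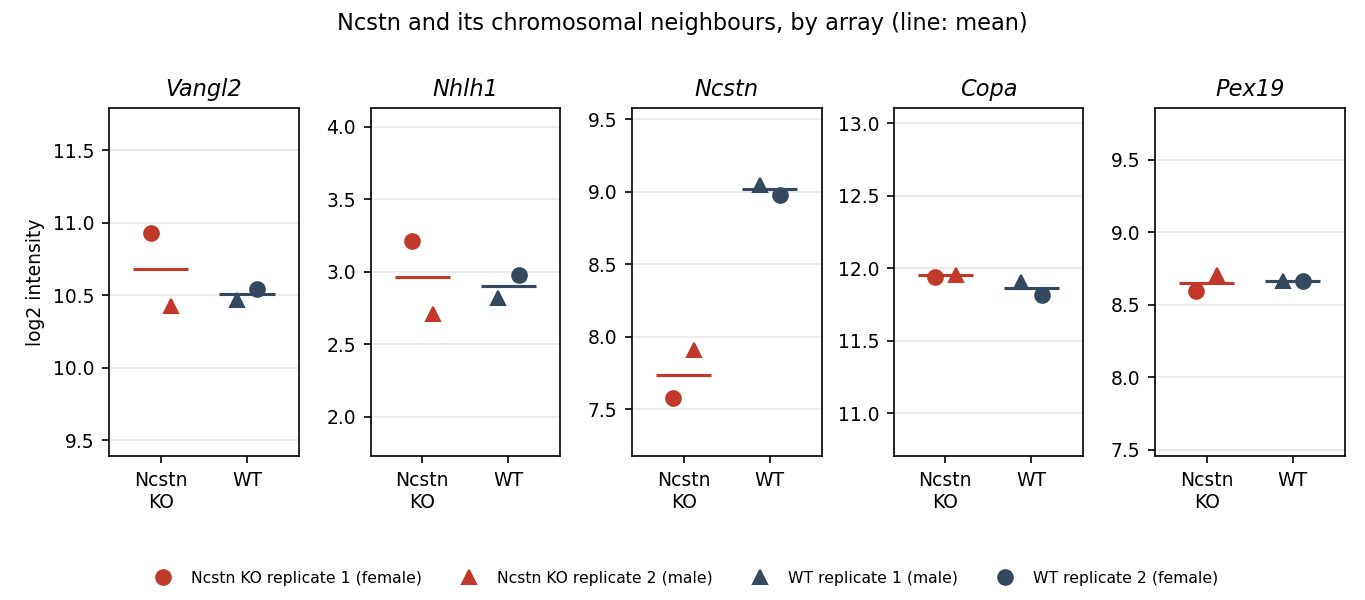
Log2 intensity on the Ncstn KO arrays (left) and the WT arrays (right) for Ncstn and its nearest measured neighbours in chromosomal order, with circles for females, triangles for males and lines at the means (n = 2). Every panel spans the same number of log2 units, and Ncstn is the gene whose groups lie over 1 unit apart.

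The lists of partner and related genes named 45 genes, of which 43 were measured (Hm13 and Sppl2c were not analysed here). Of these, 0 passed over all genes, 32 lay above and 11 below WT, and the median change was 0.17. Of all 18193 genes, 10150 lay above and 8041 below. An unadjusted p under 0.05 was found for 6 in the higher direction (background 4.96%) and for 0 in the lower (background 1.84%). Both Ncstn KO arrays were above both WT arrays for 19 of 43 (background 21.3%) and below for 3 (background 12.8%). Scaling to the hybridization controls turned this median to -0.029, where that of all genes was -0.17.

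Among the partners of the secretase and the sheddases and the relatives of presenilin, 0 genes had an unadjusted p under 0.05 (background 6.80%). These lists held 9, 3, 6 and 3 measured genes, too few to tell 0 from that share. The 9 trafficking and modulator genes had a median of -0.051, and the brightest of them, the retrieval receptor gene Rer1, read 4825 and 3821 in Ncstn KO and 4904 and 4594 in WT. The 3 measured presenilin-like proteases of the signal peptide peptidase family had a median of 0.1, led in brightness by Sppl3 at 7306 and 7097 in Ncstn KO and 6801 and 6959 in WT. The 6 TspanC8 tetraspanins, which carry ADAM10 to the cell surface, had a median of 0.07, and Tspan14 read 2734 and 2393 in Ncstn KO and 2611 and 2319 in WT. The list of the iRhoms, which carry ADAM17 to the surface, had a median of 0.25 over 3 genes. Its brightest, Frmd8, which stabilises the iRhoms, read 1674 and 1489 in Ncstn KO and 1328 and 1330.2 in WT, a change of 0.25 (SE 0.13, adjusted p = 0.842).

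The 6 genes with an unadjusted p under 0.05 lay among the other sheddases, the inhibitors and the convertases, whose lists had medians of 0.25, 0.3 and 0.27. Mmp14, a membrane-anchored matrix metalloprotease, read 108 and 116 in Ncstn KO, against 35.8 and 36.6 in WT. The groups were separate and the change was 1.63 (SE 0.24, adjusted p = 0.201), though the 2 dimmer probe sets gave 0.22 and 0.43. The mean of the Mmp14 probe sets changed by 0.76. Its main probe set was itself dim, at a mean log2 of 5.99 beside a median of 8.04 over genes. Bace1, the beta-secretase that cuts the amyloid precursor protein ahead of gamma-secretase, read 1453 and 1319 in Ncstn KO, against 873 and 587 in WT. Its change was 0.95 (SE 0.22, adjusted p = 0.405), and its 4 probe sets were all above WT, from 0.37 to 1.24. Of these, 3 were separate (background 18.5% of probe sets higher), and probe sets of 1 gene on the same arrays are not independent. The mean of the Bace1 probe sets changed by 0.81 (limma adjusted p = 0.642). Without WT replicate 2, the Bace1 change was 0.67.

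Like Mmp14, the remaining ones were dim or uneven over their probe sets. Bace2, a close relative of Bace1, read 24.8 and 20.7 in Ncstn KO, against 15.0 and 17.1 in WT (0.5, SE 0.2). Timp1, a secreted metalloprotease inhibitor gene, read 24.7 and 20.1 in Ncstn KO, against 12.4 and 16.9 in WT (0.62, SE 0.24). Timp2, the brightest inhibitor of the list, read 955 and 1153 in Ncstn KO, against 707 and 829 in WT (0.46, SE 0.18), and its 6 probe sets ran from -0.27 to 0.46. Pcsk5, a proprotein convertase gene, read 27.9 and 26.5 in Ncstn KO, against 18.9 and 19.7 in WT, but 4 of its 5 probe sets had a change below 0. Furin, the brightest of the convertases, which removes the prodomain of ADAM proteins, read 4232 and 4923 in Ncstn KO and 4367 and 3903 in WT. Adam9, the brightest of the other sheddases, read 1635 and 1379 in Ncstn KO and 1293 and 1303 in WT.

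**Figure D5:**
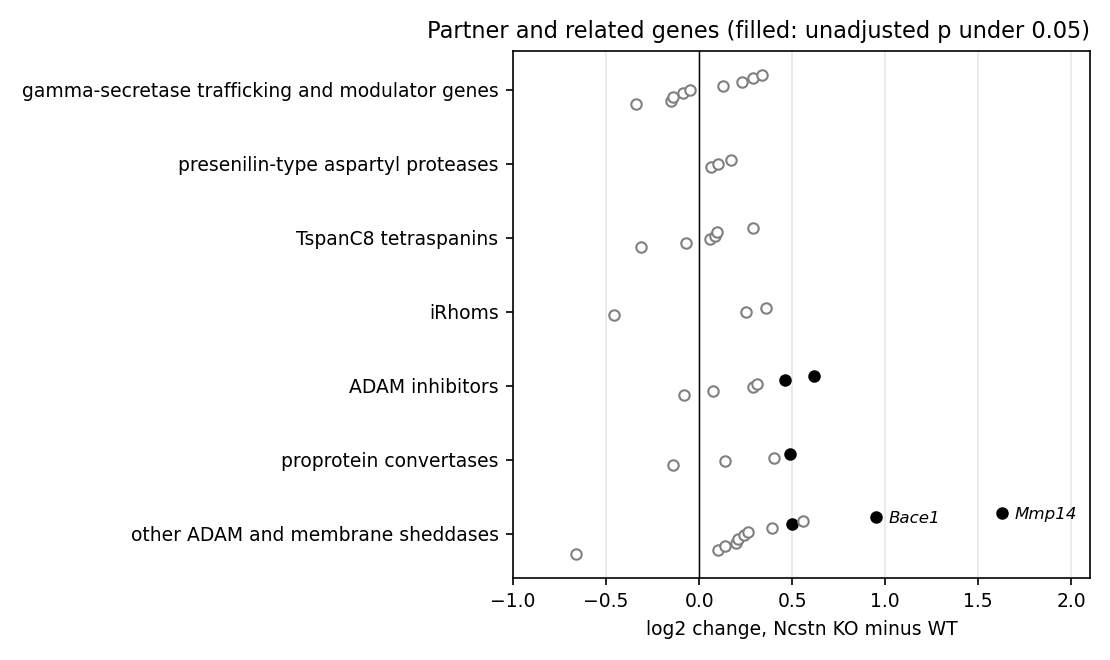
Log2 change, Ncstn KO minus WT (n = 2 per group), for the 43 measured partner and related genes by list, with points of a list spread vertically for legibility. Filled points have an unadjusted limma p under 0.05, and none passed over all genes. Mmp14 at 1.63 and Bace1 at 0.95 stand furthest to the right.

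Markers of some other blood cells were higher on the Ncstn KO arrays as well. All 12 measured neutrophil and monocyte markers had a change above 0 (median 0.98), 7 of them with separate arrays (background 21.3% of genes higher with separate arrays), and their summed intensity was 47342 and 60378 in Ncstn KO and 50065 and 40433 in WT. The largest contributor was S100a9, a calcium-binding protein gene of myeloid cells, at 14233 and 15532 in Ncstn KO and 15136 and 14403 in WT. The 6 measured basophil and mast cell markers were all above WT with separate arrays (the same background of 21.3%), at a median change of 1.61 and sums of 5131 and 4092 in Ncstn KO and 1871 and 1959 in WT, led by the protease gene Mcpt8 at 2467 and 2356 in Ncstn KO and 1143 and 1223 in WT. The other lists held members that differed in opposite directions. The 8 measured erythroid markers summed to 5068 and 3434 in Ncstn KO and 3056 and 3146 in WT, with a median change of 0.03. The largest part of that sum on every array was Car1, a carbonic anhydrase gene, at 3785 and 2415 in Ncstn KO and 1384 and 1995 in WT. Car1 and Rhag had separate arrays in the higher direction (background 21.3%). Alas2 (-1.3), Slc4a1 (-1.05) and Trim10 (-1.1) had them in the lower (background 12.8%). The 5 B cell markers summed to 2584 and 2967 in Ncstn KO and 2726 and 3211 in WT, and most of that sum was Cd79b, part of the B cell receptor. Ms4a1, which encodes CD20, read 53.4 and 53.5 in Ncstn KO, against 220.9 and 245 in WT (-2.12, SE 0.24, limma adjusted p = 0.161). Its arrays were separate in the lower direction (background 12.8%). Those of Pax5 (0.39) and Cd22 (0.3) were separate in the higher direction (background 21.3%). The median change of the B cell markers was 0.0065. The 7 stromal and endothelial markers summed to 2124 and 2768 in Ncstn KO and 2052 and 2116 in WT, mostly Pdgfrb. Its arrays were separate in the higher direction (background 21.3%). The chemokine gene Cxcl12 read 25.9 and 228 in Ncstn KO, against 319.6 and 377 in WT (-2.17, SE 0.93). The 7 T and NK cell markers summed to 629 and 702 in Ncstn KO and 446 and 668 in WT. Of them, 2 were separate in each direction (background 21.3% higher and 12.8% lower). The single markers named here were chosen after their values were seen, apart from the brightest of each list. The 3′ to 5′ difference of the actin control, a sign of RNA quality, was 1.02 and 0.94 (log2) in Ncstn KO and 0.89 and 0.79 in WT, and that of the Gapdh control was 0.69 and 0.77 in Ncstn KO and 0.71 and 0.65 in WT, where the groups overlapped. The part of these differences in the values of the members and their partners was not tested.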

How the data were processed

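RNA of LSK cells from 4 samples, 2 Ncstn KO and 2 WT, was amplified from 5 ng of total RNA. The labels' protocols name NuGEN Ovation reagents, and such amplification can add noise for rare transcripts. The authors deposited 1 intensity per probe set, made with RMA according to the submitters' processing notes; the software and its version are not stated in the labels. The values, 3.32 to 23642.56, were linear, so log2 was taken with no pseudocount and no added scaling. Of 45101 probe sets, 64 controls were left out. Symbols came from the GEO platform annotation, with 1 gene for 34945 probe sets, several for 932 and none for 9160, and 34741 matched RefSeq by Entrez identifier. Genes were tested on their brightest probe set with limma 3.58.1 in R 4.3.3 (lmFit, eBayes with a variance trend, genotype as the only term, 2 residual and a mean of 4.11 prior degrees of freedom, Benjamini-Hochberg at 0.05), and all probe sets in a second such fit, from which values of probe sets other than the main ones come. The fit was also run on simulated data. Their variances were drawn from the fit itself, so that run gives no error rate for these arrays. Detection over background was not assessed, so dim values carry unknown error. Genes named were the members, the brightest member of each partner list, those with an unadjusted p under 0.05, the 5 profiles nearest to Ncstn and, added later, its neighbours. Members and lists were chosen with earlier results of these data known. Figures used matplotlib 3.10.9. The samples of a group came from different mice, since their sexes differ. Whether a sample held cells of 1 mouse or of several was not checked.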

Additional observations from a re-analysis of the deposited data

Results flagged for a closer look

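For 10 of the 18 probe sets the change had opposite signs between the females and between the males, and whether these differences exceed chance was not tested, because each pair holds 1 array per genotype. They were the second Ncstn probe set (-0.92 between the females, 0.27 between the males), the dim Psen2 probe set (0.24 and -0.35), the brightest Aph1a probe set (0.21 and -0.24) and the dimmest Aph1b probe set (1.39 and -0.13). Psenen had 0.022 and -0.036. The 3 Adam10 probe sets other than the main one had 0.44 and -0.11, 0.32 and -0.2, and -0.98 and 1.01. The 2 Adam17 probe sets other than the main one had 0.2 and -0.09, and 0.22 and -0.23. Opposite signs were found for 46.5% of all probe sets tested. Groups of 2 arrays are too small to look for a single array that stands apart.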

How the results depend on the processing

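The change of Ncstn stayed negative and short of the threshold under all alternatives tried, from -1.47 (scaling to hybridization controls) to -0.8 (mean of its probe sets), with adjusted p from 0.0847 to 1.0, and from -1.44 to -1.11 without 1 array. Psen2 kept its sign under all alternatives tried, from 0.18 (mean of its probe sets) and 0.22 (scaling to hybridization controls) to 0.48, with 0.34 to 0.48 without 1 array. No gene passed in the main analysis; 3 did after repeated quantile normalization, 62 after median centring, 2 among genes above the median brightness, and 0 to 27 without 1 array, the highest counts being 23 without Ncstn KO replicate 1 and 27 without Ncstn KO replicate 2. None of the 7 members was among them. Leaving out 1 array also leaves a genotype with a single sex. Over all probe sets, 0 passed under every alternative. Signs turned for Aph1a (0.16 without WT replicate 1, 0.027 without Ncstn KO replicate 2, 0.37 with the mean of its probe sets), for Aph1b (-0.11 under scaling to hybridization controls, -0.12 without WT replicate 2, -0.12 without Ncstn KO replicate 2), for Psenen (0.006 after quantile normalization, 0.004 after median centring, 0.023 without WT replicate 1), for Adam10 (-0.098 under scaling to hybridization controls, -0.018 without WT replicate 2) and for Adam17 (-0.13 under scaling to hybridization controls). The cause was not tested. Ranges without 1 array were -0.2 to 0.16 for Aph1a, -0.12 to 0.29 for Aph1b, -0.037 to 0.023 for Psenen, -0.018 to 0.21 for Adam10 and 0.005 to 0.12 for Adam17. The median of the partner lists was -0.029 under scaling to hybridization controls, 0.112 with the mean of probe sets and 0.101 to 0.221 without 1 array. The replicate number as a block left Ncstn at -1.27 (adjusted p = 0.559) and 0 genes passing; the numbers are shared names rather than a pairing, and their deviations correlated at -0.24 over genes. The crossed pairing, added after seeing the data and the same fit as sex as a term, also gave 0 genes. Dim probe sets were not assessed against background, which limits what they show.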
